A study of Mus musculus with 6 samples.

Results

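Reads annotated as tRNA of lysine (Lys) or glutamine (Gln) were followed in mouse serum by small RNA sequencing of 6 libraries, made with the NEBNext, TruSeq or TailorMix kit (2 libraries per kit). Members were all distinct read sequences listed as tRNA whose annotated gene name carried Lys or Gln, and numbered 1507 and 1401 in the NEBNext libraries, 1404 and 1346 with TruSeq and 546 and 566 with TailorMix, of 7542 to 12354 tRNA sequences per library. They fell under 4 of 49 anticodons, CTT and TTT of Lys and CTG and TTG of Gln. All serum came from healthy 129/SVj mice, male and female and 2 to 9 months old, which were sedated with tribromoethanol before blood was taken, and the labels name no other treatment. The groups differed in the kit, which was the small RNA kit v2 of the TruSeq series from Illumina, the miRNA kit v2 of the TailorMix series from Seqmatic, or the Multiplex Small RNA kit of the NEBNext series from New England Biolabs. RNA was isolated mouse by mouse, but the labels do not tell which animal gave which library, so that p-values measure only the spread between these libraries, which may be technical. Lys and Gln were chosen by their shares of tRNA reads per kit, which were known beforehand, and those shares are therefore described here without a test.

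Transfer RNAs carry amino acids to the ribosome and read the codons of mRNA through the 3 bases of their anticodon. Lys and Gln each have a pair of isoacceptors (tRNAs that carry the same amino acid but read other codons) that differ in the first anticodon base, a C in CTT and CTG and a T, in the RNA a heavily modified uridine, in TTT and TTG. Glutamate (Glu) is built in the same way, with CTC and TTC. Serum is known to hold fragments of tRNAs, among them those that angiogenin, a secreted nuclease, leaves after cleavage at the anticodon. In serum, RNA released by more cells and more RNA released by each cell cannot be told apart.

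The 6 libraries held 4911281 to 25976737 tRNA reads, which was 95.5% to 98.9% of the reads listed as miRNA or another small RNA. Depth differed with the kit, from 4911281 and 5064283 tRNA reads with TailorMix over 11252517 and 9119851 with TruSeq to 25976737 and 16767212 with NEBNext. The blood miRNA miR-16-5p, known to be abundant in red cells, took 0.402% and 0.374% of miRNA reads with NEBNext, but 3.22% and 2.81% with TruSeq and 5.14% and 4.89% with TailorMix. Libraries of a kit differed by more than counting noise over all anticodons (chi-square divided by its degrees of freedom, 324 to 10093). Kit and any batch in which its libraries were handled cannot be told apart.

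On the mouse genome build GRCm38, the RefSeq annotation holds 42 nuclear tRNA genes with these anticodons, each 72 or 73 bases long: 24 for Lys CTT, 2 for Lys TTT, 10 for Gln CTG and 6 for Gln TTG. In this annotation Lys CTT genes lie on 12 chromosomes, whereas both of its Lys TTT genes lie on chromosome 13, n-TKttt23 at chr13:21907940-21908012 and n-TKttt22 at chr13:21971788-21971860. The annotation behind the deposited reads is another one, with 10 gene names of Lys TTT and 17 of Lys CTT over the 6 libraries. Genes of the 2 amino acids are neighbours at several places. The nearest pair was n-TQctg6 at chr11:69124607-69124678 and n-TKctt27 at chr11:69125176-69125248, with 497 bases between them. The deposited gene names carry numbers that do not map onto these symbols, and which locus gave rise to a read cannot be told apart from copies with the same sequence. Anticodons below are those in the single gene name listed for a sequence. Whether a sequence also occurs in genes with the other anticodon could not be checked.

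Lys was the most abundant tRNA type after the dominant types Glu, Gly, Val and His with NEBNext and TruSeq, but not with TailorMix. Of the tRNA reads of each library, Lys took 1.21% and 1.24% in the NEBNext pair, 2.81% and 3.21% in the TruSeq pair and 0.223% and 0.215% in the TailorMix pair. The kits did not overlap, and the TruSeq libraries were the highest. The mean with TruSeq was 2.46 times that with NEBNext (2.26 to 2.66 over pairs of libraries) and 13.7 times that with TailorMix (12.6 to 14.9). Behind these shares stood 313370 and 208396 reads with NEBNext, 315902 and 293172 with TruSeq, and only 10967 and 10902 with TailorMix. The 95% Wilson interval was widest, relative to its value, in TailorMix replicate 2 (0.211% to 0.219%), and covers counting error only.

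Gln followed another order, with the NEBNext libraries on top. It took 0.581% and 0.702% of tRNA reads with NEBNext and 0.299% and 0.303% with TruSeq, as compared to 0.0315% and 0.0320% with TailorMix. Again no kit overlapped with another. The NEBNext mean was 2.13 times the TruSeq mean (1.92 to 2.34 over pairs of libraries) and 20.2 times the TailorMix mean (18.1 to 22.3). The TailorMix values rested on 1546 and 1622 reads. That the libraries of the 3 kits did not overlap held for both Lys and Gln and for 81% of all 21 tRNA types, and as the levels were in view when Lys and Gln were chosen, nothing is read from it.

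**Figure D1:**
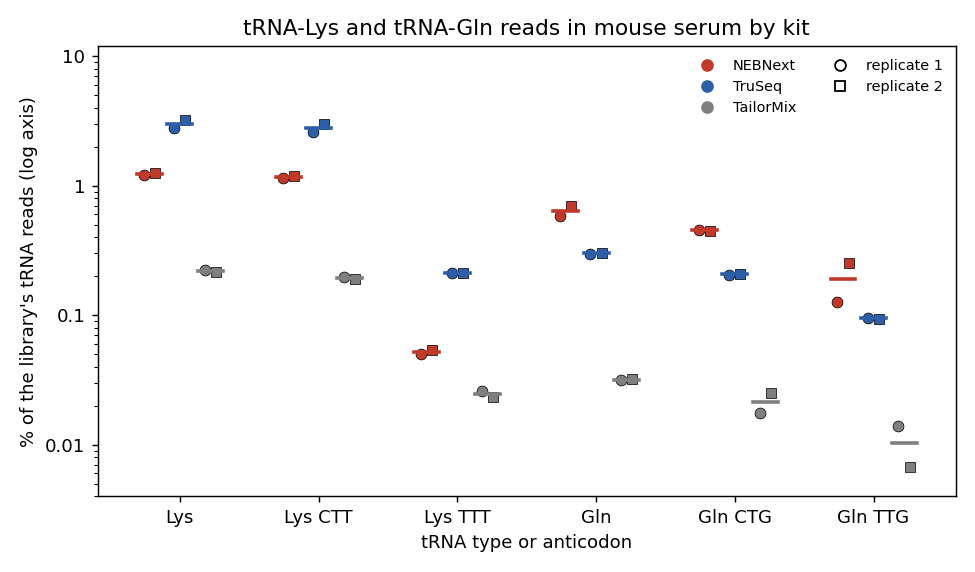
Share of each library's tRNA reads (vertical log axis, in %) for Lys, Gln and their anticodons. Points are single libraries (circle, replicate 1; square, replicate 2) and bars are means of 2 libraries; Lys is highest with TruSeq (2.81% and 3.21%), Gln with NEBNext (0.581% and 0.702%), and both are lowest with TailorMix.

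Since Lys was highest with TruSeq and Gln with NEBNext, the number of Lys reads per Gln read differed between kits. It was 2.08 and 1.77 in the NEBNext libraries, 9.38 and 10.6 with TruSeq and 7.09 and 6.72 with TailorMix. Together both types made up 1.79% and 1.94% of tRNA reads in the NEBNext pair, 3.11% and 3.52% in the TruSeq pair and 0.255% and 0.247% in the TailorMix pair. Outside the dominant Glu, Gly, Val and His, they were the greater part of what remained with NEBNext (60.6% and 58.8%) and TruSeq (78.5% and 81.9%), but a minor part with TailorMix (8.12% and 8.09%).

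By mean level, Lys ranked 5 of 21 types with NEBNext and TruSeq and 8 with TailorMix. With NEBNext it stood between His, whose libraries held at least 2.30%, and Gln, with at most 0.702%. With TruSeq its nearest neighbours were farther away, Gly with 14.2% and 15.3% above it and Pro with 0.491% and 0.503% below it. With TailorMix Lys could not be ordered against Leu, which took 0.208% and 0.224% and enclosed both Lys libraries. Gln ranked 6 with NEBNext, 7 with TruSeq and 12 with TailorMix, where Thr stood just above it with 0.0339% and 0.0366%. All values are shares of reads and were not divided by the length of the tRNA, which differed by 1 base between the genes of Lys and Gln.

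**Figure D2:**
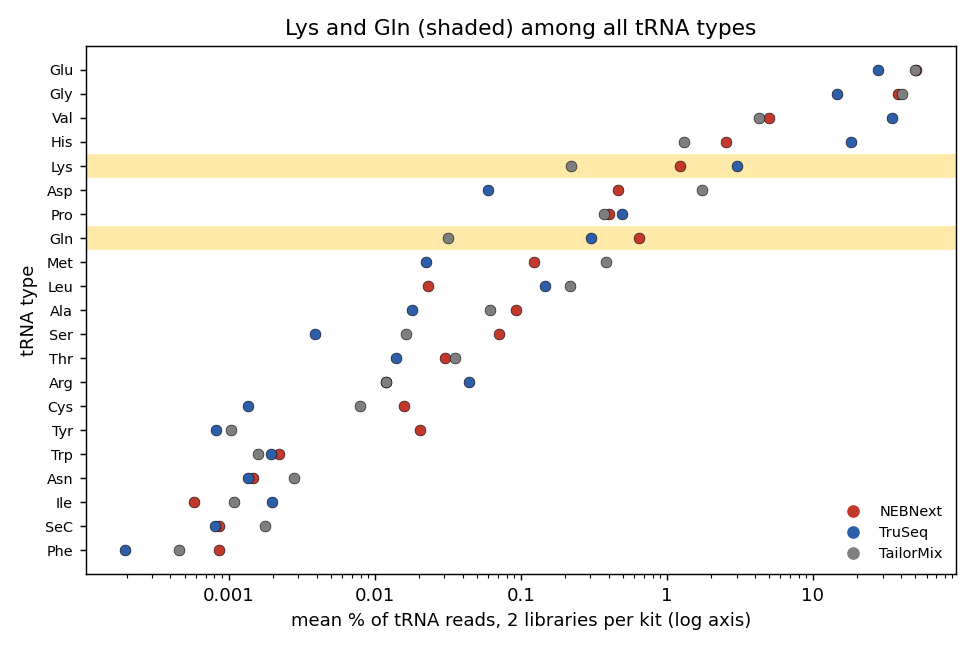
Mean share of tRNA reads of all 21 tRNA types (horizontal log axis, in %), ordered by the mean over the 3 kits, with 1 point per kit (mean of 2 libraries). In the shaded rows, the TailorMix points of Lys (0.219%) and Gln (0.0318%) lie to the left of those of the other kits.

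CTT carried most Lys reads with every kit and was the major isoacceptor in all 6 libraries. It took 1.16% and 1.19% of tRNA reads with NEBNext, whereas TruSeq had 2.60% and 3.00% and TailorMix 0.198% and 0.192%. TTT, the rarer isoacceptor, was at 0.0497% and 0.0541% with NEBNext and 0.211% and 0.210% with TruSeq, as compared to 0.0258% and 0.0235% with TailorMix. The mean of TTT with TruSeq was 4.06 times that with NEBNext (3.88 to 4.25 over pairs of libraries), against 2.39 times for CTT (2.18 to 2.60). Fitted over all 47 anticodons on the total of tRNA reads (edgeR), the log2 fold change from NEBNext to TruSeq was 1.26 (standard error 0.15) for CTT and 2.02 (standard error 0.20) for TTT. From NEBNext to TailorMix it was -2.59 (standard error 0.16) for CTT and -1.08 (standard error 0.19) for TTT.

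For Gln, CTG was the more abundant form in every library. Its share of tRNA reads was 0.454% and 0.448% in the NEBNext pair, 0.204% and 0.209% in the TruSeq pair and 0.0176% and 0.0253% in the TailorMix pair. TTG took 0.126% and 0.254% with NEBNext, whereas TruSeq had 0.0953% and 0.0939% and TailorMix 0.0139% and 0.00675%. Replicates of TTG thus lay far apart with NEBNext and TailorMix, but close together with TruSeq. The fitted log2 fold change from NEBNext to TailorMix was -4.40 (standard error 0.29) for CTG and -4.20 (standard error 0.57) for TTG, and from NEBNext to TruSeq -1.13 (standard error 0.25) and -1.01 (standard error 0.50). The median fold change of all anticodons from NEBNext to TruSeq was -0.20 with this scaling and 0.61 with TMM, under which CTG moved to -0.30 and TTG to -0.15, while CTT was at 2.09 and TTT at 2.86. No fold change of these 4 anticodons turned its direction under TMM, DESeq2 size factors or the replicate block.

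How the reads of a type were split over its anticodons is not fixed by the level of the type, and was compared between kits by a test. The split uses the same read counts as the levels by which Lys and Gln were chosen, so its p-values are descriptive. Of all Lys reads, TTT took 4.12% and 4.35% with NEBNext and 7.52% and 6.54% with TruSeq, as compared to 11.6% and 10.9% with TailorMix. The libraries of the 3 kits did not overlap, with means of 4.24% ± 0.164, 7.03% ± 0.696 and 11.2% ± 0.457 (SD, n = 2 each), which is also the case for 50% of the 38 anticodons compared. In the edgeR quasi-likelihood F test of kit on counts relative to the total of the amino acid, TTT had an adjusted p of 0.00503. It was the only one of the 4 Lys and Gln anticodons with an adjusted p under 0.05, a call made for 44.7% of all 38 anticodons tested. From NEBNext to TailorMix the log2 fold change of the TTT share was 1.41 with a standard error of 0.13 (edgeR, adjusted p = 0.00395), in a contrast that called 34.2% of anticodons. TruSeq lay between them, 0.73 above NEBNext on the log2 scale (standard error 0.13, adjusted p = 0.0165, 44.7% of anticodons called) and 0.68 below TailorMix (standard error 0.13, adjusted p = 0.0209, 36.8% called). The share of CTT is the same split seen from the other side, at 88.4% to 95.9% of Lys reads, and did not pass in this test (adjusted p = 0.291). Exact permutation of the share over all 15 groupings of the libraries gave a two-sided p of 0.0667, the smallest that 6 libraries in 3 pairs allow. It was 0.105 after Benjamini-Hochberg adjustment over 11 permutation tests, which were picked by the results reported here and are not all that were run. With each of the 6 libraries left out in turn, the contrast from NEBNext to TailorMix passed (edgeR, adjusted p 0.0106 to 0.0286). That from NEBNext to TruSeq did not pass without NEBNext replicate 1 (adjusted p = 0.0722), NEBNext replicate 2 (0.0589) or TruSeq replicate 1 (0.0763), and that from TruSeq to TailorMix passed only without NEBNext replicate 2 (0.0497, otherwise 0.0511 to 0.0956) and was -0.065 with TMM on top of the offsets (adjusted p = 0.785). TMM on top of the offsets moved the contrast from NEBNext to TruSeq to 1.47 (adjusted p = 0.00372). With the serum number as a replicate block, neither the contrast from NEBNext to TruSeq (0.73, adjusted p = 0.0591) nor that from TruSeq to TailorMix (0.68, adjusted p = 0.0708) passed.

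The kits took the same order in the TTT share as in the share of miR-16-5p among miRNA reads and the reverse order in depth, and the part of both in the TTT share was not tested. The most abundant TTT sequence of each library made up much of the TTT share outside NEBNext. It took 4.84% and 4.11% of Lys reads with TruSeq and 5.42% and 4.82% with TailorMix, but only 0.755% and 0.742% with NEBNext. All other TTT sequences together took 3.37% and 3.61% of Lys reads in the NEBNext pair, 2.68% and 2.43% in the TruSeq pair and 6.14% and 6.09% in the TailorMix pair. Without the leading sequence, TruSeq therefore lay below NEBNext and TailorMix above both. The TTT share also depended on the leading CTT sequences, since the 3 most abundant Lys sequences were listed under CTT in all 6 libraries. When the 3 most abundant sequences of every type were left out, a choice made after seeing the data that takes only CTT reads from Lys, the log2 fold change of the TTT share from NEBNext to TruSeq became -0.15 (edgeR, adjusted p = 0.371), whereas from NEBNext to TailorMix it was 0.71 (adjusted p = 0.0172). TTT also had more of the Lys sequences than of the Lys reads, with 29.3% to 34.1% of the distinct sequences in the 6 libraries.

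The Gln split showed no such order. TTG took 21.8% and 36.2% of Gln reads with NEBNext, whereas TruSeq had 31.8% and 31.0% and TailorMix 44.1% and 21.1%. The libraries of NEBNext and TailorMix enclosed those of TruSeq, and the difference between kits was smaller than the spread between replicates (edgeR F test, adjusted p = 0.945; exact permutation test, two-sided, p = 1.00). The log2 fold change of the TTG share from NEBNext to TailorMix was 0.17 with a standard error of 0.47. Without the 3 most abundant sequences of each type, a choice made after seeing the data, this fold change was 0.82 (edgeR, adjusted p = 0.0277), but the sequences left out were not alike, with 2 of them listed under TTG in NEBNext replicate 2 and 0 in TailorMix replicate 2. For comparison, TTC of Glu, the third tRNA of this kind, took 12.2% ± 0.632 of Glu reads in the NEBNext libraries, 12.3% ± 1.96 in those of TruSeq and 11.6% ± 0.242 in those of TailorMix (SD, n = 2 each; edgeR F test, adjusted p = 0.856). Of TTT of Lys, TTG of Gln and TTC of Glu, only TTT passed the test of kit. Anticodons of other types that start with T passed it as well, among them Val TAC (edgeR F test, adjusted p = 0.00160). Whether the kit difference of TTT differs from that of TTG or TTC was not tested.

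**Figure D3:**
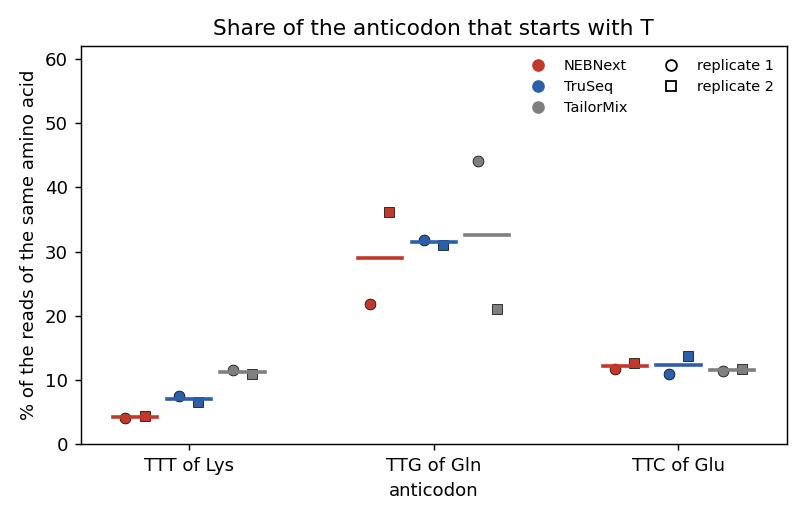
Share of the reads of the same amino acid (vertical axis, in %) that carried the anticodon starting with T, for Lys, Gln and Glu. Points are single libraries (circle, replicate 1; square, replicate 2) and bars are means of 2; TTT of Lys rises from 4.24% with NEBNext to 11.2% with TailorMix, while replicates of TTG of Gln lie far apart with NEBNext and TailorMix.

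The listed names give values beside the spread of the Gln split. With TailorMix, the 2 most abundant Gln sequences took 24.1% and 21.7% of Gln reads in replicate 1 and 28.2% and 19.3% in replicate 2. The sequence in the second place was listed under tRNA1493 with TTG in replicate 1 and under tRNA1817 with CTG in replicate 2. With NEBNext, the sequence in the third place was listed under tRNA753 with CTG in replicate 1 (7.93% of Gln reads) and under tRNA113 with TTG in replicate 2 (10.8%), where tRNA753 with CTG followed in the fourth place (7.60%). The lists number sequences within a library only, so that it cannot be told whether these were the same sequence, and the part of these sequences in the spread of the TTG share was not tested.

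A few sequences carried most of the reads of both types. Over how many of the 21 types the kits separate in such measures was not computed. The measures use the same read counts as the levels by which Lys and Gln were chosen, so their p-values are descriptive. The most abundant Lys sequence took 31.0% and 29.2% of Lys reads with NEBNext and 27.7% and 24.8% with TruSeq, as compared to 28.4% and 28.8% with TailorMix, each listed under CTT. The 3 most abundant together took 74.1% and 71.9% with NEBNext, but 50.9% and 49.8% with TruSeq and 56.5% and 56.3% with TailorMix. Replicates lay close together compared with the distance from NEBNext to the other kits, and p was 0.0667 in the two-sided exact permutation test, its lower limit, which it also reached for the leading sequence alone. As for TTT, each p of 0.0667 given here became 0.105 after adjustment over the same permutation tests. The effective number of Lys sequences, which counts sequences weighted by their share (inverse Simpson index), was 5.14 and 5.50 in the NEBNext pair, 7.92 and 8.51 in the TruSeq pair and 7.45 and 7.44 in the TailorMix pair. In the TruSeq libraries, 15 sequences in each reached 90% of Lys reads, as compared to 21 and 29 with NEBNext and 43 and 48 with TailorMix. The TruSeq curves therefore started lowest but were the first to reach 90%.

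For Gln the most abundant sequence, listed under CTG in each library, took 38.7% and 33.4% of Gln reads with NEBNext, whereas TruSeq had 25.3% and 23.8% and TailorMix 24.1% and 28.2%. TruSeq and TailorMix overlapped (exact permutation test, two-sided, p = 0.133, adjusted 0.183). The 3 most abundant Gln sequences together took 58.7% and 55.2% with NEBNext, 43.5% and 48.6% with TruSeq, but 55.4% and 55.9% with TailorMix, so that NEBNext and TailorMix overlapped (exact permutation test, two-sided, p = 0.2, adjusted 0.244). The effective number of Gln sequences was 5.48 and 6.69 for NEBNext, 9.54 and 9.35 for TruSeq and 8.0 and 7.35 for TailorMix. It did not overlap between kits (two-sided exact permutation, p = 0.0667, the lower limit). This measure was added after seeing the data. How many of the other types it separates was not computed, so nothing particular to Gln is read from it. Reaching 90% of Gln reads took 16 and 18 sequences with NEBNext, 15 in each TruSeq library and 23 and 21 with TailorMix. Among all 21 types the share of the leading sequence ranked between 9 and 12 for Lys, near the middle. Gln ranked higher with NEBNext, at 5 and 8, than with TruSeq (14 and 13) and TailorMix (13 and 12).

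**Figure D4:**
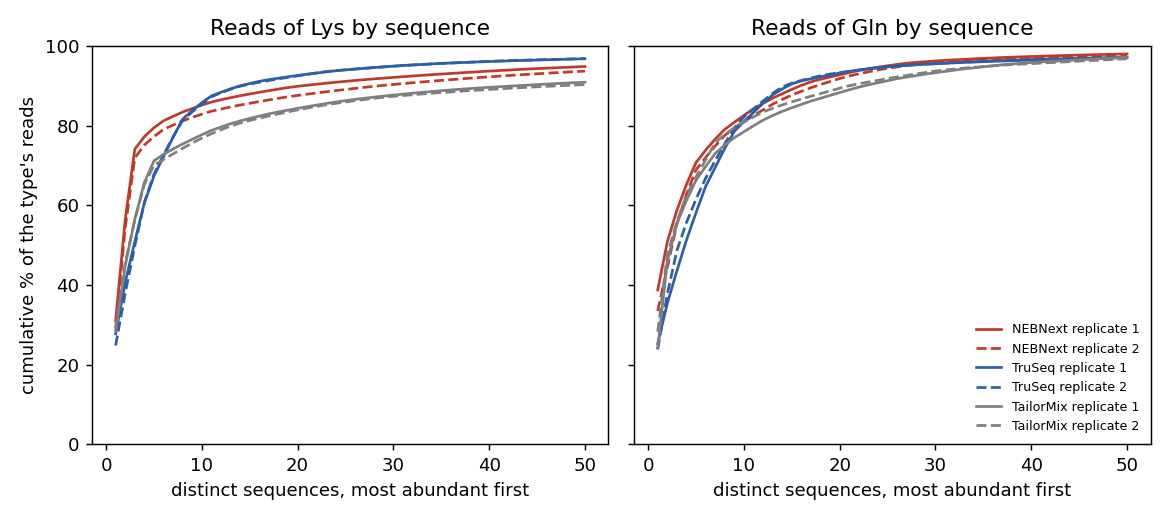
Cumulative share of the reads of Lys (left) and Gln (right) over their 50 most abundant sequences, in %, with 1 line per library (solid, replicate 1; dashed, replicate 2). For Lys the NEBNext lines reach over 70% within 3 sequences, and the TruSeq lines cross them later and reach 90% first, at 15 sequences.

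Distinct sequences are numbered from the highest to the lowest read count in every library. The leading Lys sequence stood at number 45 and 49 with NEBNext (97195 and 60840 reads), 72 and 68 with TruSeq (87468 and 72667 reads) and 403 and 411 with TailorMix (3112 and 3138 reads). The leading Gln sequence stood at 62 in both NEBNext libraries, at 582 and 598 with TruSeq and at 2449 and 2094 with TailorMix. These places follow the levels described above and carry no test.

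The number of distinct sequences depends on the number of reads, and was therefore compared at equal depth. Unthinned, Lys had 1028 and 951 sequences with NEBNext and 997 and 998 with TruSeq, as compared to 453 and 467 with TailorMix. Thinned to the 10902 Lys reads of the shallowest library, 277 and 296 were expected in the NEBNext pair, 237 and 235 in the TruSeq pair and 452 and 467 in the TailorMix pair. TailorMix, lowest before thinning, thus had the most different sequences at equal depth (two-sided exact permutation, p = 0.0667, the lower limit). Other tRNA types were not thinned, so this is not read as particular to Lys or Gln. The thinned numbers use the same read counts as the levels by which both were chosen, so their p-values are descriptive. For Gln, thinned to 1546 reads, 71.2 and 75.6 sequences were expected with NEBNext, whereas TruSeq had 84.4 and 82.9 and TailorMix 93.0 and 96.8 (p = 0.0667 in the same exact test). TailorMix was highest for both types, while NEBNext and TruSeq changed places. Sequences with a single read made up 34.5% to 46.9% of the Lys sequences and 37.1% to 48.9% of the Gln sequences over the 6 libraries.

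Each sequence was listed under a single tRNA gene name, and the leading names often, but not always, differed between replicates. Over the 6 libraries 17 names of Lys CTT, 10 of Lys TTT, 10 of Gln CTG and 6 of Gln TTG appeared, and 10, 8, 9 and 6 of these in every library. For Lys CTT, tRNA2023 led in NEBNext replicate 1 with 46.4% of CTT reads and tRNA748 in replicate 2 with 53.7%. With TruSeq tRNA999 led in replicate 1 with 53.2% and tRNA2023 in replicate 2 with 41.0%. Only with TailorMix did both libraries have the same leading name, tRNA999 with 35.0% and 33.2%. For Gln CTG no kit had the same leading name in both libraries: tRNA756 and tRNA297 led with NEBNext, tRNA756 and tRNA994 with TruSeq, and tRNA756 and tRNA753 with TailorMix. Lys TTT was led by tRNA1816 in both NEBNext libraries (28.5% and 32.5%), but by different names with TruSeq and with TailorMix. Gln TTG was led by tRNA1007 in both NEBNext (60.8% and 48.2%) and both TruSeq libraries (75.4% and 51.7%). With TailorMix its leading name differed. Among the 10 most abundant sequences taken place by place, the name was the same in both libraries of a kit in 3 places for Lys with each kit, and in 2, 2 and 0 places for Gln with NEBNext, TruSeq and TailorMix. The anticodon was the same in 10, 8 and 10 places for Lys and in 8, 6 and 6 for Gln. In the 57 pairs of libraries of the other 19 types the median was 10 places for the anticodon. Types with nearly all reads under a single anticodon are among them and match by construction, so this median is no measure for Lys or Gln. For the name the median was 2 places. Values by single gene name are therefore not compared between kits here.

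**Figure D5:**
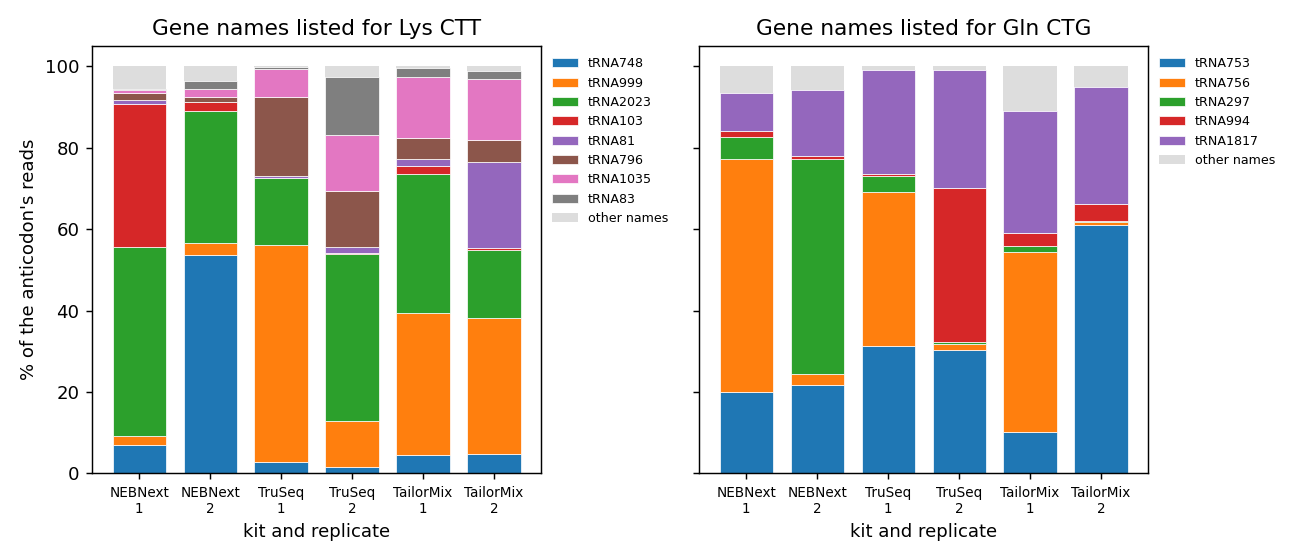
Share of the reads of Lys CTT (left) and Gln CTG (right) listed under each tRNA gene name, in %, in the 6 libraries; names under 10% in every library are joined in grey. Replicates of a kit often differ in the leading name, as tRNA2023 (46.4%) and tRNA748 (53.7%) for Lys CTT with NEBNext.

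Compared were the other anticodons whose mean over the 6 libraries was at least 0.01% of tRNA reads. Among them, the pattern most like Lys was that of Val TAC (Pearson r of log2 shares 0.976), then Arg CCG (0.906) and His GTG (0.896). For Gln it was again Val TAC (0.928), followed at a distance by Val AAC (0.681) and Pro CGG (0.671). The mean share of Val TAC was 0.191% for NEBNext, 0.287% for TruSeq and 0.0185% for TailorMix. Arg CCG passed the limit of 0.01% only through TruSeq (0.0336%), where Lys is highest too. Its mean was 0.00416% for NEBNext and 0.00175% for TailorMix. The levels of Lys and Gln themselves had an r of 0.832. These values describe 22 candidate anticodons over 6 points that share kits and a common total, and carry no p.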

How the data were processed

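Small RNA of mouse serum was sequenced in 6 libraries, 2 for each of 3 kits, which were grouped by the kit and serum number in the sample titles. Per the labels and the study's methods, the authors trimmed adaptors (cutadapt 1.8.1), removed short and low-quality reads, mapped without mismatches (Bowtie 1.1.2, GRCm38) and annotated reads by position. The deposited values are read counts, not normalized, for each miRNA and for each distinct sequence of another small RNA with its gene name. The base letters of these sequences were not used here. Reads were summed by amino acid and anticodon (Python 3.11.15, pandas 2.3.3, numpy 2.4.6, scipy 1.17.1). The test covered all 38 anticodons of types with several anticodons that had 10 counts or more in 2 or more libraries, and was run with edgeR 4.0.16 (R 4.3.3; glmQLFit, glmQLFTest, Benjamini-Hochberg), with the total of the amino acid as offset and no block. Standard errors of edgeR fold changes were back-calculated, as the absolute log2 fold change divided by the square root of its quasi-likelihood F. Intervals cover counting error only, as reads carried no molecular identifiers. Single values were compared by exact permutation of the between-kit F ratio, and thinning used its expected value. Scripts were tested on simulated data. DESeq2 1.42.0, TMM, other filters, denominators and libraries left out were tried as alternatives. Lys and Gln, the lists and the tests were chosen with earlier results of these data known. Named were all 4 anticodons, their leading sequences, the isoacceptors of Glu, and per type the 3 anticodons of most similar pattern. Of the blood miRNAs chosen as markers only miR-16-5p, whose identifier the paper pairs with its name, was looked up.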

Additional observations from a re-analysis of the deposited data

Results flagged for a closer look

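A small number of reads was listed under both piRNA and tRNA without a gene name, and could not be assigned to Lys, Gln or another type. They numbered 182 and 125 in the NEBNext libraries, 5 in TruSeq replicate 1 and 60 and 41 in the TailorMix libraries, each above the 3 counts that a count of 0 allows. TruSeq replicate 2 had none. No comparison used these reads.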

How the results depend on the processing

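Levels of Lys and Gln kept the order of the kits with each denominator and filter. Without Glu, Gly, Val and His in the denominator, Lys took 39.3%, 72.9% and 7.08% (NEBNext, TruSeq, TailorMix) and Gln 20.5%, 7.31% and 1.03%. As a share of annotated reads, Lys with TailorMix was 0.209%, Gln with TruSeq 0.292% and Gln with TailorMix 0.0303%. Counting only sequences with at least 4 counts, the same values were 0.210%, 0.298% and 0.0302%. For the share of TTT within Lys, the replicate block gave log2 fold changes of 0.73 from NEBNext to TruSeq (adjusted p = 0.0591) and 0.68 from TruSeq to TailorMix (adjusted p = 0.0708), both no longer called, and 1.40 from NEBNext to TailorMix (adjusted p = 0.0211). It called 16 anticodons in place of 17. The same-numbered libraries did not deviate together (Pearson r 0.0457, -0.340 and -0.102 across 46 or 47 anticodons, which are not independent), which leaves unsettled whether the same number means the same serum, as the labels do not say so. With single libraries left out, where a lone library is assumed to vary like the others, the TTT fold changes lay between 0.63 and 0.83, 0.58 and 0.78, and 1.36 and 1.45. TMM on top of the offsets called 26 anticodons and gave -0.065 for TTT and -0.68 for TTG of Gln from TruSeq to TailorMix, and 1.47 and 0.87 from NEBNext to TruSeq. TMM without the offsets, which compares levels by construction, also called 26, with TTT at -1.08 from NEBNext to TailorMix and -3.84 from TruSeq to TailorMix, and TTG at -0.25, -4.18 and -3.93. Without the 3 most abundant sequences of each type, chosen after seeing the data and for Lys all listed under CTT, TTT from NEBNext to TruSeq was -0.15 and TTG from NEBNext to TailorMix 0.82 (adjusted p = 0.0277). Leaving out single libraries moved TTG between -0.20 and 0.53 (NEBNext to TruSeq; negative without NEBNext replicate 1), -0.46 and 0.61 (NEBNext to TailorMix; negative without NEBNext replicate 1 or TailorMix replicate 1) and -0.57 and 0.49 (TruSeq to TailorMix; negative without TailorMix replicate 1), none of them called, and moved the leading Gln sequence, TailorMix minus TruSeq, between -0.420 and 3.69 percentage points. Counting sequences with at least 4 counts without thinning, TailorMix had fewer Lys sequences than NEBNext (-292) and TruSeq (-270.5), and for Gln the differences were -71 (TruSeq minus NEBNext), -164 (TailorMix minus NEBNext) and -93 (TailorMix minus TruSeq). This setting changes both the filter and the depth, and the cause was not tested.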
